A study of Drosophila melanogaster with 2 samples.

Results

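The arginine methyltransferase genes of Drosophila melanogaster were examined in chromatin immunoprecipitation followed by sequencing (ChIP-seq) of a GFP-tagged protein, assayed as a transcription factor. They are Art1, Art2, Art3, Art4, Art6, Art7, Art8, Art9 and csul, 9 of the 13945 protein-coding genes on the 6 major chromosome arms, and were taken by gene name from the Ensembl annotation. The set was chosen with the peaks of these data known, because the promoter of Art3 carries 1 of the strongest peaks, so the peak values below are a description and were not tested. The embryos were whole, 10 to 24 h old, and from a transgenic line whose labels name CG9817 as the fusion partner of a C-terminal GFP and CG43347 as the targeted gene. The promoter of the transgene is not given in the sources used here. Precipitation was with an antibody to GFP. The 2 samples, biological replicates 1 and 3 of this single group, both carry the tag, and no embryos without it were analysed here. Whole embryos mix all tissues, so more cells with bound chromatin and more binding per cell cannot be told apart.

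Protein arginine methyltransferases transfer methyl groups from S-adenosylmethionine to the guanidinium nitrogens of arginine in histones, splicing factors, ribosomal proteins and RNA-binding proteins. Most members of the family leave asymmetric dimethylarginine, whereas the enzyme known as PRMT5 in mammals leaves the symmetric form, which Tudor domains read. Art1 is the fly counterpart of mammalian PRMT1, the main asymmetric enzyme, Art3 of PRMT3, which methylates ribosomal protein S2 in yeast and mammals, and Art4, also called CARMER, of the coactivator CARM1. In the fly, csul (capsuléen) encodes the PRMT5 counterpart that acts on Sm and Piwi proteins, and Art7 that of PRMT7. Art2, Art6, Art8 and Art9 encode further family members.

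Of the 9 genes, 4 (44.4%) had a promoter peak in the list of 5038 peaks that the authors thresholded by the irreproducible discovery rate (IDR). They were Art3, Art8, Art1 and Art4. A promoter peak here has its summit no more than 500 bp from a transcription start site (TSS) of the gene. Among all protein-coding genes 23.7% had one, and with only 9 members chosen for these peaks nothing is read from the comparison. The same 4 genes had a promoter peak in the full lists of both replicates, as did 38.0% of coding genes, and also among the strongest 5038 peaks of each replicate, where 26.8% of coding genes had one in replicate 1 and 21.8% in replicate 3. Art3 stood far above the rest. Its peak ranked 4 of 30000 in the list called on both replicates together, against ranks of 1473, 2745 and 3152 for Art8, Art1 and Art4. In the IDR-thresholded list, 0 of the 9 genes had a summit inside the gene body beyond 500 bp of a TSS. For all coding genes this share was taken only together with the 5 kb flanks, at 44.1%, so nothing is read from the count.

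The sequences around the 4 promoter summits are shown because the results turn on them, together with that upstream of Art6, which had no IDR-thresholded peak. Each of the 4 peaks extends beyond its printed stretch. Where 2 coding genes start back to back, the sequence is the whole gap between their start sites, and otherwise it is the 250 bp upstream. All are read 5′ to 3′ on the strand of the Art gene, so each ends next to its start site. Capitals mark matches, on either strand, to any of 8 searched patterns and 10 enriched 7-mers described further on. Overlapping matches run together.
Art3, gap to mRpS10, chr3R:15229409-15229664, minus strand: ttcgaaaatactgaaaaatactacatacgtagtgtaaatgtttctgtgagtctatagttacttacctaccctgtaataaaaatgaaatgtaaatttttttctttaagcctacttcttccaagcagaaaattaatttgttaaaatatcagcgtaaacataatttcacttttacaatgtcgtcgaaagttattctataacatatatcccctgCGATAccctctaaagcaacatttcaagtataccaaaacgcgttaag
Art8, gap to dUTPase, chr2L:11011087-11011311, minus strand: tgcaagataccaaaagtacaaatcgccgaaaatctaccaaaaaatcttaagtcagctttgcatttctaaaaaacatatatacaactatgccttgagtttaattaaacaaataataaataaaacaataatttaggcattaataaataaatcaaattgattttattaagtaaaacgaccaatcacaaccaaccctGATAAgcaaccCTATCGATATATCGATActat
Art1, gap to Mcm5, chr3R:10788227-10788523, minus strand: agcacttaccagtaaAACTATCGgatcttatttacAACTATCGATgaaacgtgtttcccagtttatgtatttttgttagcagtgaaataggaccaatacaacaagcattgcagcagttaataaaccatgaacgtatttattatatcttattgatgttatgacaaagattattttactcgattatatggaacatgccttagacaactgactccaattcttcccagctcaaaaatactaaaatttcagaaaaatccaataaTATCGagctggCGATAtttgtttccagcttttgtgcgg
Art4, upstream, chr3R:9986061-9986310, minus strand: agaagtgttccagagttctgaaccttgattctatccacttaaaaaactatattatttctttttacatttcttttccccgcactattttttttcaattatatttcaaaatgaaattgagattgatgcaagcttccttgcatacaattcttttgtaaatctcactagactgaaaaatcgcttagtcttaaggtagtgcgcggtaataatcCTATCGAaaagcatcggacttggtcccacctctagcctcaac
Art6, upstream, chr3R:13945813-13946062, minus strand: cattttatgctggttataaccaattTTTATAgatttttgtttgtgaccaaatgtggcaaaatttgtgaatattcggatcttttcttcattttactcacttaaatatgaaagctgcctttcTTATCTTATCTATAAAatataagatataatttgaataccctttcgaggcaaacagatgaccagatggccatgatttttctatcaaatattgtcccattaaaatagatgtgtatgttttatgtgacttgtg
Coordinates are those of the release 6 (dm6) assembly, counted from 1. None of the 5 stretches overlaps an annotated UTR or coding exon.

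Art3 (FBgn0038306) lies at 15227605 to 15229408 on the minus strand of 3R, with 1 annotated start site for its 2 transcripts. Its peak spanned 15229347 to 15229717 on 3R, with its summit in intergenic sequence. The deposited signal of the peak was 5586 in the pooled list, on a scale the authors do not define. In the separate lists the signal was 2733 at rank 3 in replicate 1 and 2872 at rank 6 in replicate 3. Both replicates thus placed the same site among their strongest peaks. Only 2 of the 2311 promoter peaks in the IDR-thresholded list were stronger, which puts Art3 at rank 3 among them, at 18.5 times their median signal of 301. Within the pooled list its signal was 14.4 times that of Art8, 24.0 times that of Art1 and 27.1 times that of Art4.

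The summit lay 119 bp upstream of the start site of Art3 and 138 bp upstream of that of mRpS10, a gene for a protein of the small subunit of the mitochondrial ribosome. The start sites of this head-to-head pair lie 257 bp apart, with the genes pointing away from each other. The summit was 9.5 bp from the midpoint of the gap in the pooled list and in replicate 3, and 6.5 bp from it in replicate 1. It falls at base 138 of the printed Art3 sequence in the pooled list, and at base 135 in replicate 1. The peaks cannot be assigned to either gene of the pair. Elsewhere in the Art3 gene and its 5 kb flanks the pooled list held only 3 weak peaks, with signals of 47.5, 37.4 and 48.3.

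**Figure D1:**
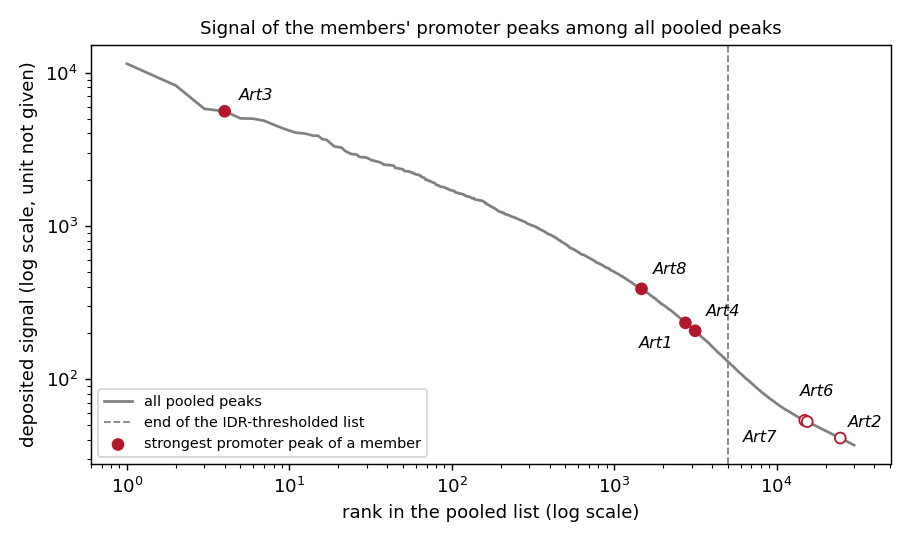
Deposited signal of all 30000 pooled peaks (grey line) by rank, both axes logarithmic, with the strongest promoter peak of each gene that had one as a circle, filled if the peak is in the IDR-thresholded list. Art3 sits at rank 4, whereas Art8, Art1 and Art4 lie between ranks 1473 and 3152, and Art7, Art6 and Art2 lie beyond the end of the IDR-thresholded list (dashed line at rank 5038).

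Art8 (FBgn0032329, minus strand of 2L, 11009821 to 11011086) had the next strongest promoter peak, at 11011027 to 11011376 on 2L. Its signal was 387 in the pooled list, 139 at rank 1739 in replicate 1 and 239 at rank 1440 in replicate 3. It was stronger than the median promoter peak by a factor of 1.29, and 37.9% of promoter peaks were stronger. The summit lay 116 bp upstream of Art8 and 110 bp upstream of its head-to-head partner dUTPase, whose product hydrolyses dUTP and so keeps uracil out of DNA. With start sites 226 bp apart, it was 3.0 bp from their midpoint in the pooled list and in replicate 3, and 2.0 bp from it in replicate 1. A noncoding antisense gene, asRNA:CR45778, also covers the summit, which falls in its exon.

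Art1 (FBgn0037834, minus strand of 3R, 10786481 to 10788226) shares its promoter region with Mcm5, which encodes a subunit of the replicative helicase, with start sites 298 bp apart. Its IDR-thresholded peak, at 10788082 to 10788431 on 3R, had a signal of 232 in the pooled list, 96.0 at rank 2654 in replicate 1 and 142 at rank 2793 in replicate 3. The ranks of the replicates were close, but their summits were not. In replicate 3 the summit lay 31 bp upstream of Art1, and a weaker peak at rank 22762 had its summit 66 bp upstream of Mcm5. In replicate 1 a single peak had its summit 154 bp upstream of Art1 and 144 bp upstream of Mcm5, 5.0 bp from the midpoint. The pooled list followed replicate 3, with summits 31 bp upstream of Art1 and 67 bp upstream of Mcm5, the second of them at rank 7353 and signal 89.5.

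This displacement of 123 bp between the replicates was uncommon. Among 2269 IDR-thresholded promoter peaks overlapped by a peak in each replicate, the summits of the strongest overlapping peaks differed by a median of 20.0 bp (quartiles 8 and 40 bp). Only 43 of them (1.90%) moved further than at Art1. At Art8 the summits differed by 1 bp, at Art3 by 3 bp and at Art4 by 12 bp between the strongest peaks that overlap the IDR-thresholded one. Of the 4 promoter peaks, that of Art1 was the 1 whose position differed between the replicates by more than the upper quartile.

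**Figure D2:**
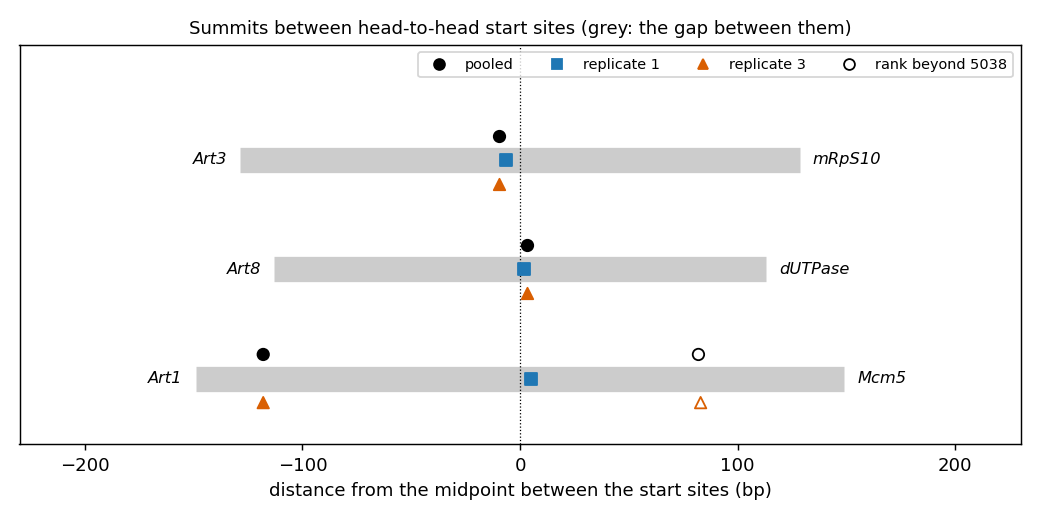
Positions of summits between the start sites of 3 head-to-head pairs, as distance in bp from the midpoint of the gap (grey bar), in the pooled list and in each replicate. Open symbols have a rank beyond 5038. Summits at Art3/mRpS10 and Art8/dUTPase lie within 9.5 bp of the midpoint in every list, whereas at Art1/Mcm5 replicate 1 has 1 central summit and replicate 3 has 1 on each side.

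Position within the gap was set beside other head-to-head promoters. Of 520 coding start-site pairs that lie 200 to 300 bp apart, 274 had an IDR-thresholded summit between them, at a median of 27.8 bp from the midpoint (quartiles 12 and 48.8 bp). The summits at Art3 and Art8 were nearer to the midpoint than the lower quartile, and the IDR-thresholded Art1 summit, at 118 bp, was beyond the upper one. The single replicate 1 summit at Art1/Mcm5 lay 5.0 bp from the midpoint, between the distances of Art8 and Art3.

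Art4 (FBgn0037770, minus strand of 3R, 9982816 to 9986060) was the only 1 of the 4 without a head-to-head coding partner within 1000 bp. It lies inside an intron of Glut4EF, which encodes a transcription factor, and of the overlapping gene CG46467, on the opposite strand. Its promoter peak at 9986013 to 9986362 on 3R had a signal of 206 in the pooled list, 85.1 at rank 3032 in replicate 1 and 123 at rank 3261 in replicate 3. It was the weakest of the 4, and 70.8% of promoter peaks were stronger. The summit was 128 bp upstream of the start site of Art4 in the pooled list, 148 bp upstream in replicate 1 and 136 bp upstream in replicate 3. The IDR-thresholded list ends at a signal of 129, so the Art4 peak was 1.60 times its weakest entry.

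The other 5 genes, Art7, Art6, Art2, Art9 and csul, had no IDR-thresholded promoter peak. Weak promoter peaks in the full lists were common, since 48.2% of coding genes had one in the pooled list, 53.0% in that of replicate 1 and 45.4% in that of replicate 3. For these 5 genes, 0 were present in both replicates at the distance of 500 bp. Art7 had a summit 177 bp upstream of its start site in replicate 1, with a signal of 42.0 at rank 6260. In replicate 3 the nearest upstream summit was 517 bp away, just outside the promoter distance, with a signal of 28 at rank 27610. That summit lies in the coding sequence of the neighbouring gene CG43659, 160 bp downstream of its start site. The pooled and replicate 1 summits at Art7 are also within 500 bp of a start site of CG43659. In the pooled list the Art7 peak ranked 14891, with a signal of 53.6.

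Art6 and Art9, which follow each other on 3R in the same orientation, had little signal. Art6 had pooled summits 262 bp downstream, inside its coding sequence, and 484 bp upstream of its start site, with signals of 52.6 and 45.8. Replicate 3 had counterparts 256 bp downstream and 390 bp upstream, at ranks 16151 and 21990, and replicate 1 had none. Art9 had no promoter peak in any list, and its nearest pooled summit lay 567 bp upstream with a signal of 60.9. Art2 had 1 promoter peak, 24 bp upstream of its outer start site, in the pooled list only, with a signal of 41.1 at rank 24657.

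For csul no list held a promoter peak, although it has the closest head-to-head partner of the 9 genes, fidipidine, 33 bp away. The nearest summit in the pooled list lay 1101 bp upstream, in an intron of fidipidine, with a signal of 37.9. Replicate 3 had 2 summits in the coding sequence of csul, 632 and 1307 bp downstream of the start site, at ranks 21690 and 28289, and replicate 1 had none in the gene. Of the 9 genes, only csul and Art9 had no promoter peak in any list.

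**Figure D3:**
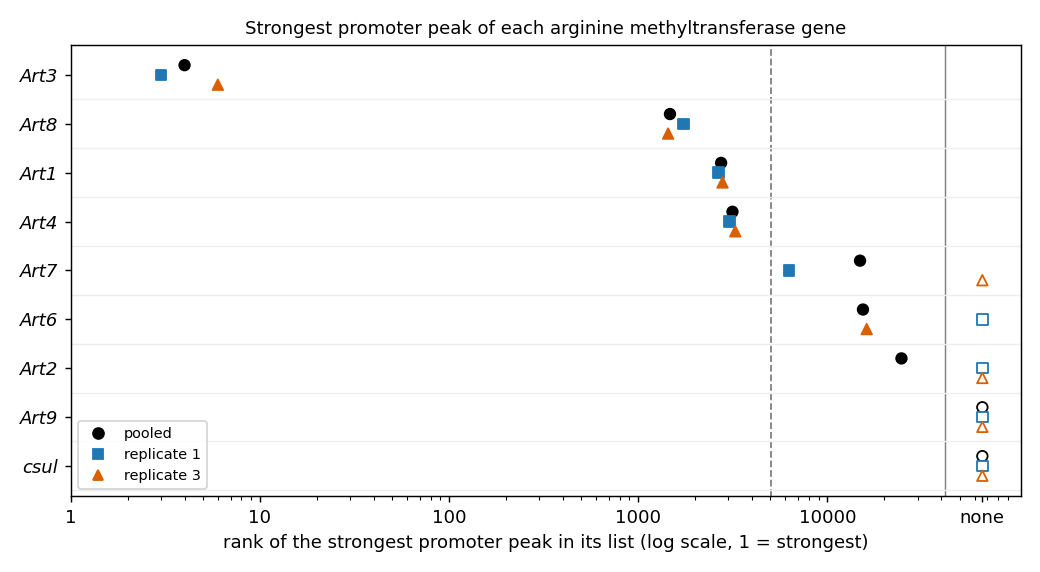
Rank of the strongest promoter peak of each gene in the pooled list and in each replicate, on a log axis on which 1 is the strongest of 30000, with genes without a promoter peak in a list under none (open symbols). The dashed line marks rank 5038, the length of the IDR-thresholded list. All 3 symbols of Art3, Art8, Art1 and Art4 lie left of it, and those of the other 5 genes lie right of it.

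Head-to-head arrangement was common among the bound genes of the whole genome. Of all coding genes, 36.2% had such a coding partner within 1000 bp, and of those with an IDR-thresholded promoter peak 65.6% did. A summit counts here for every coding gene with a TSS within 500 bp. A single peak between close start sites therefore counts for both genes, so the shares for paired genes depend partly on the counting rule. Among the 9 methyltransferase genes, Art3, Art8, Art1 and csul had one, and 3 of these 4 had a promoter peak, where 43.0% of all such coding genes did. Of the 5 genes without such a partner only Art4 had one, where 12.8% of all such coding genes did. These counts rest on the chosen members and are a description. Within 2000 bp, tutl lies head to head with Art2 at 1824 bp, and Gr59a, a gustatory receptor gene, with Art7 at 1523 bp.

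Beyond the promoters, 3 of the 9 genes had an IDR-thresholded summit within 5 kb, and 44.1% of coding genes had one in the gene body or flanks. They were Art1, Art2 and Art7, and the peaks of Art2 and Art7, described here, lay at the start sites of neighbouring genes. Upstream of Art2, a narrow peak of 125 bp at 4282730 to 4282854 on 2L had a signal of 262 at rank 2400. Its summit was 1442 bp from the outer start site of Art2 and 382 bp upstream of tutl (turtle), which encodes a neuronal surface protein of the immunoglobulin superfamily. It ranked 3897 in replicate 1 and 1926 in replicate 3. Past the end of Art7, by 1870 bp, the peak at 23074643 to 23074992 on 2R had a signal of 228 at rank 2797. Its summit lay 93 bp upstream of Fib, which encodes fibrillarin, the RNA methyltransferase of nucleolar small ribonucleoproteins and itself a protein rich in methylated arginine. CG3085, head to head with Fib, starts 5 bp from it. This peak ranked 2232 in replicate 1 and 3635 in replicate 3.

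The full pooled list held 41 distinct peaks in the 9 genes and their 5 kb flanks. The 7 that were IDR-thresholded all overlapped a peak in each replicate. That list was thresholded by reproducibility between the same replicates, and 2269 of its 2311 promoter peaks overlapped a peak in each. The other 34 peaks at the 9 genes had signals between 37.2 and 93.6. Of these, 12 overlapped a peak in both replicates, 7 in replicate 1 alone, 12 in replicate 3 alone and 3 in neither. The shares over all pooled peaks outside the thresholded list were not taken, so nothing is read from these counts. All 9 genes had a peak in the flanks in each full list. Summits inside a gene beyond its promoter numbered 3 in the pooled list, 1 in replicate 1 and 5 in replicate 3, all outside the thresholded list. That of Art7 lay 1091 bp downstream of its start site in the pooled list and 1093 bp downstream in replicate 3, and that of Art8 lay 984 bp and 1015 bp downstream in these lists. The pooled list contains the reads of replicate 3, and replicate 1 had neither. Of all coding genes, 86.8% had a summit in the gene body or flanks in the pooled list, 89.2% in that of replicate 1 and 87.5% in that of replicate 3. The share for gene bodies alone was not taken, so nothing is read from the gene-body counts.

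**Figure D4:**
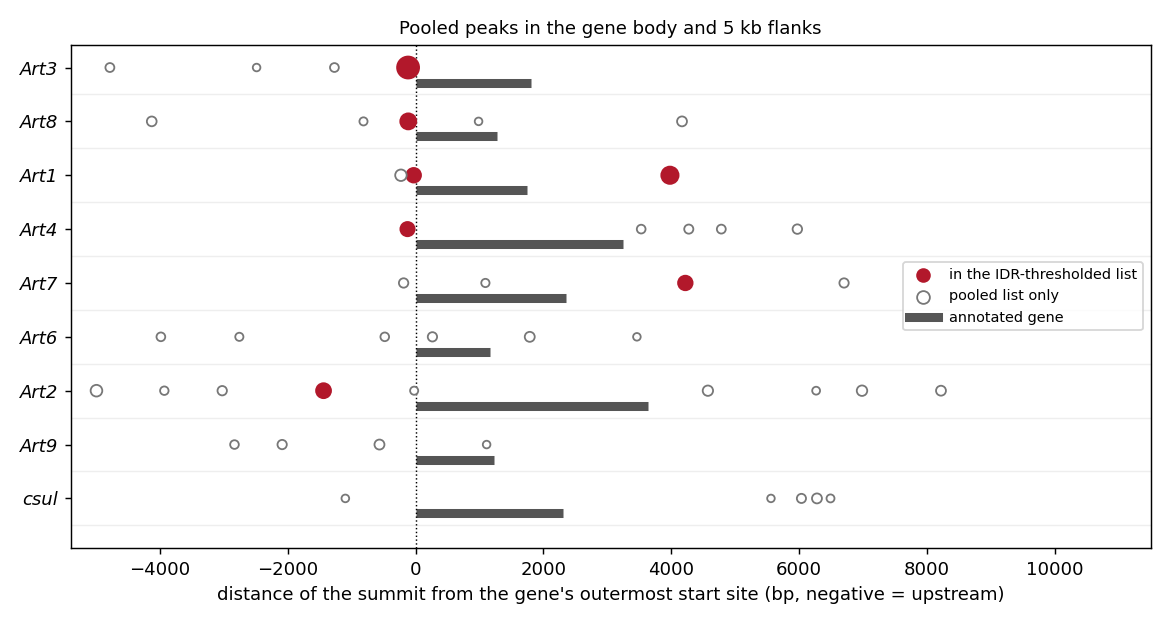
Summits of pooled peaks along each gene and its 5 kb flanks, as distance in bp from the outermost start site, negative upstream, with larger circles for higher signal. Filled circles are IDR-thresholded. The 7 filled circles comprise the promoter peaks of Art3, Art8, Art1 and Art4 and the flank peaks of Art1, Art7 and Art2.

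Sequence windows reached 100 bp to either side of the promoter summits. They held less G and C than the median of windows flanking all IDR-thresholded summits. Their share was 29.9% at Art3, 27.4% at Art8, 38.3% at Art1 and 30.8% at Art4. The median was 34.3% over all IDR-thresholded summit windows and 43.8% over windows 600 bp to either side. Over windows upstream of coding start sites it was 38.8%, close to the share at Art1. Art1 lay above the median of bound sites and Art3, Art8 and Art4 below it. A window of the same length ending at the start site of Art6 also held 29.9%, with no IDR-thresholded peak there. In the same window Art9 had 22.9%, Art7 33.8% and csul 38.8%, and Art2 had 34.8% at its inner and 48.8% at its outer start site. The outer window of Art2 was the only 1 of these above the median of the flanking windows.

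Patterns known from fly promoters were searched on both strands. The DRE, the site of the factor Dref, was read as TATCGATA. The core of the sites of the insulator protein BEAF-32, which the DRE contains, was read as CGATA. For motif 1, the element bound by M1BP at housekeeping promoters, the core GGTCACAC was used. The pattern of the GAGA factor, known for opening chromatin at promoters, was GAGAG. Of the E-boxes, which are bound by basic helix-loop-helix proteins, CACGTG was searched first. The other E-box form, bound by several tissue-specific members of that family, was CAGCTG. The factors of the GATA family, which act in blood, gut and fat body among other tissues, were given the pattern GATAA. The TATA box, the element of the basal machinery that lies just before some start sites, was read as TATAAA. The core CGATA was in the summit windows of all 4 genes with a promoter peak. It was also in 31.2% of all IDR-thresholded windows, 22.2% of the flanking windows and 36.6% of windows upstream of coding start sites. Among the genes without such a peak, it was in the window upstream of Art7 and in that of the outer start site of Art2. GATAA was in the summit windows of Art1, where it lies outside the printed sequence, and Art8, and in 42.0% of all IDR-thresholded windows. It was also in the upstream windows of all 5 genes without an IDR-thresholded promoter peak, at both start sites of Art2. Of all windows upstream of coding start sites, 42.4% held it. None of the other 6 patterns was in any of the 4 summit windows.

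In the printed sequences, the only CGATA of Art3 starts at base 211, 46 bp before the start site of Art3, and the pooled summit is at base 138. The Art8 gap holds TATCGATA at bases 206 and 214, 20 and 12 bp before the start site of Art8. The edge of the summit window runs through the first of these, so the window holds the CGATA match at base 206, its only one, but neither whole TATCGATA. Of all windows, 4.29% of IDR-thresholded windows, 0.576% of flanking windows and 6.21% of those upstream of coding start sites held that pattern. The Art1 gap holds matches at both ends. Next to Mcm5, CGATA matches start at bases 19 and 39, within stretches of enriched 7-mers. Next to Art1, they start at bases 260 and 271.

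The 10 enriched 7-mers were taken from the 5031 IDR-thresholded windows that do not belong to these genes, by the ratio of their share at summits to that in the flanks. They were led by ACTATCG, in 5.80% of summit windows and 0.994% of flanks, and CAGTGTA, in 6.92% and 1.48%. The summit window of Art4 held 1 of the 10, CTATCGA, and those of Art3, Art8 and Art1 held 0. At least 1 was in 34.6% of all IDR-thresholded windows, 12.7% of flanking windows and 25.5% of windows upstream of coding start sites. Outside the window at the pooled summit, 4 of the 10 were in the gap between Art1 and Mcm5, near the start site of Mcm5, and CTATCGA with ATCGATA overlapped the DRE matches next to Art8, at or beyond the edge of its window. The peak at Art3, at rank 4, has none of the 10 in its window or in the whole gap to mRpS10.

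The coding genes whose strongest promoter peak was most like that of Art3 were found by the Euclidean distance of log10 ranks over 3 lists, the pooled one and those of both replicates, among 5175 genes with a promoter peak in all 3. The replicates and the pooled list share reads. Genes that share the Art3 peak itself, such as mRpS10, were left out. Of the others, the nearest were CG5611 and Mtl, a Rac-like GTPase gene, which share a peak at ranks 8, 6 and 8 in the pooled list, replicate 1 and replicate 3 (distance 0.444). Next came CHMP2B, which encodes a component of the ESCRT-III complex, and Tcs5, which share a peak at ranks 9, 7 and 10 (distance 0.556). The fifth was mRpL41, another gene of the mitochondrial ribosome, at rank 2 in each list (distance 0.591). All 5 have a head-to-head coding partner within 1000 bp, as did 65.6% of coding genes with an IDR-thresholded promoter peak. CG5611 and Mtl are each other's partner, as are CHMP2B and Tcs5, so the 5 genes are not separate cases.

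Further genes of arginine methylation were described from a list ordered by role, which was chosen with earlier results of these data known. All 27 names were matched, and 9 (33.3%) had an IDR-thresholded promoter peak, beside 23.7% of coding genes. With a peak counted only for the coding gene with the nearest TSS, 4 of the 27 had one, beside 16.8%. In the methylosome and the assembly of Sm rings, 2 of 8 genes had a peak. They were Smn, the core of the assembly complex (signal 281, rank 2229), and icln, an Sm chaperone (signal 146, rank 4443), whose peak also reached the partner RhoGAP54D. The gene of the csul partner Valois, vls, ranked 11981 in the pooled list. The genes of Sm proteins SmB and SmD1 had a promoter peak in none of the 4 lists, and SmD3 ranked 7955.

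RpS2, whose product is methylated by the PRMT3 counterpart in other species, had a signal of 169 at rank 3867. It ranked 2592 in replicate 1 and 6238 in replicate 3. Among readers with Tudor domains, 3 of 8 genes had a peak. That of papi, whose mitochondrial protein binds Piwi proteins, was strongest, with a signal of 1539 at rank 129, 298 bp upstream of a start site inside the gene. It ranked 140 in replicate 1 and 131 in replicate 3. At a TSS distance of 250 bp papi had no IDR-thresholded promoter peak. The peaks of spn-E, a gene of an RNA helicase with a Tudor domain (rank 2536), and Tudor-SN (rank 3147) were weaker, and each also reached a head-to-head neighbour, ND-23 and mRpL17. For tud a promoter peak was called in replicate 3 alone, at rank 3937.

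Of the Piwi and Vasa substrates, piwi (signal 472, rank 1100) and vas (signal 347, rank 1698) had a promoter peak, and aub and AGO3 had none in any list. The piwi peak also reached CG12253 and the vas peak solo, and neither piwi nor vas had one when a peak counted only for the coding gene with the nearest TSS. The piwi peak ranked 1328 in replicate 1 and 1010 in replicate 3, and that of vas 1403 and 2112. In the methyl donor cycle 0 of 5 genes had an IDR-thresholded promoter peak. The nearest to that list was Ahcy, which encodes adenosylhomocysteinase, the enzyme that removes the product of methylation, at rank 5310. JMJD6, a Jumonji oxygenase described in mammals as an arginine demethylase, had a signal of 1141 at rank 237, 385 bp upstream of its start site. That peak ranked 188 in replicate 1 and 297 in replicate 3, and it also reached the start sites of Muted and CG7071. JMJD6 had no IDR-thresholded promoter peak at a TSS distance of 250 bp. It also had none when a peak counted only for the coding gene with the nearest TSS.

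**Figure D5:**
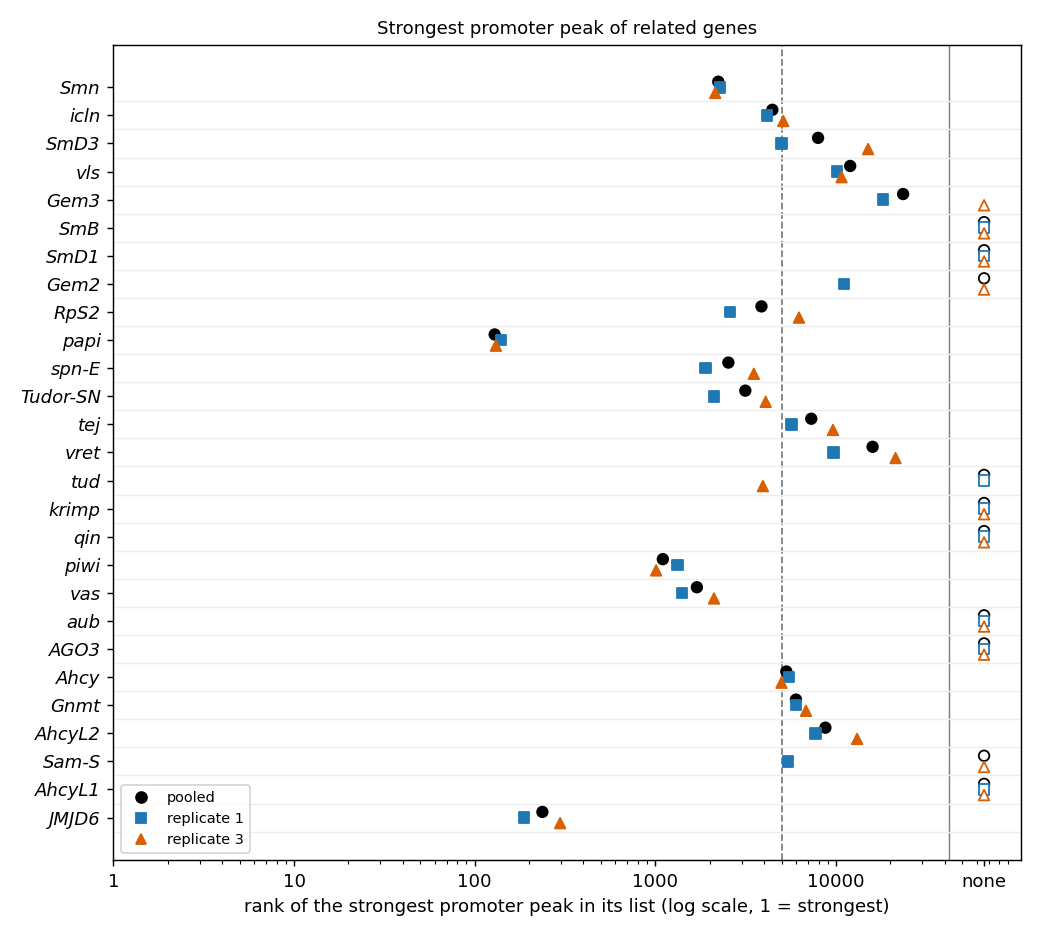
Rank of the strongest promoter peak of the 27 related genes in the pooled list and in each replicate, on a log axis, with genes grouped by role and ordered by pooled rank within a role. Open symbols under none had no promoter peak in that list, and the dashed line marks rank 5038. The peaks of papi and JMJD6 are the strongest, at ranks 129 and 237 in the pooled list. Their summits lie 298 and 385 bp upstream of a start site, so neither counts at a TSS distance of 250 bp.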

How the data were processed

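ChIP-seq peak lists were analysed for 2 biological replicates of 1 group. Per the file headers and deposited notes, the authors derived the peaks of each replicate and of both replicates pooled from alignments to the dm6 build together with a control, and an IDR-thresholded list from those 3. The caller is not given in the sources used here. Each deposited peak has a signal on an undefined scale, used here only within a list for ranks and ratios, and a −log10 q value deposited by the authors, which is tied at its highest value in 3218 of 5038 IDR-thresholded peaks and was not used for ranking. Chromatin fragments were 200 to 800 bp, per the labels. The full lists hold 30000 peaks each, the thresholded list is the 5038 strongest pooled peaks, and the read depth is unknown.

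Start sites came from Ensembl release 115 (BDGP 6.54) and sequence from the RefSeq copy of the release 6 assembly, on whose arms all peaks fit. Ranks run by signal. A head-to-head partner is a coding gene on the other strand that starts within 1000 bp and points away. Every coding gene went through the same steps. Windows reached 100 bp to either side of summits. 7-mers in at least 2% of summit windows were ranked by their ratio to flanks 600 bp away. No tests were run, because the members were chosen with these peaks known, and the lists of genes and patterns were also chosen with earlier results of these data known. Genes were named by a rule covering the 9 members, their partners and genes at their promoter or IDR-thresholded peaks. It also covered related genes with an IDR-thresholded promoter peak and the 5 genes most like Art3. Further related genes (vls, SmB, SmD1, SmD3, tud, aub, AGO3 and Ahcy) were named after their values were seen. The flank peak of Art1 is counted but not reported here. Alternatives were TSS distances of 250 and 1000 bp, the stronger 2519 peaks, all pooled peaks, 1 gene per peak, flanks of 2 kb, partners within 500 or 2000 bp, and the strongest 5038 peaks of each replicate. Assignment of peaks to genes was tested on simulated data. Python 3.11.15, numpy 2.4.6, pandas 2.3.3 and matplotlib 3.10.9 were used.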

Additional observations from a re-analysis of the deposited data

How the results depend on the processing

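The 4 bound methyltransferase genes, Art1, Art3, Art4 and Art8, were the same at TSS distances of 250 and 1000 bp, beside 19.1% and 27.1% of coding genes. They were also the same in the strongest 5038 peaks of either replicate, so leaving out replicate 1 or replicate 3 gave 4 each time. In the full lists of both replicates the count was 4 at 250 bp and 5 at 1000 bp. There Art7 was added, in replicate 3 through a summit in the coding sequence of CG43659. With the stronger 2519 peaks 2 remained, Art3 and Art8, beside 14.8% of coding genes, and with all pooled peaks 7, beside 48.2%. With 1 gene per peak 3 kept a peak in the IDR-thresholded list, since the Art8 summit is nearer to dUTPase, and 16.8% of coding genes had one. The count in both replicates fell to 2 by that rule, Art3 and Art4, since the replicate 1 summit at Art1 is nearer to Mcm5 and the Art8 summits are nearer to dUTPase. The share of coding genes was not taken for that count, so nothing is read from the fall. Of the 27 related genes, 5 had a peak among the stronger 2519 peaks, 17 among all pooled peaks and 4 with 1 gene per peak. At a TSS distance of 250 bp the count was 7, without papi and JMJD6, beside 19.1% of coding genes. Without replicate 1 the count was 9, with Ahcy and tud gained and RpS2 and icln lost, and without replicate 3 it was 10, with SmD3 gained. Coding genes with a promoter peak came to 21.8% without replicate 1 and 26.8% without replicate 3, and 3 methyltransferase genes had a flank or gene-body summit each time. All 9 methyltransferase genes had a flank or gene-body summit with all pooled peaks, against 3 in the IDR-thresholded list. The other 22 recomputed values stayed within 1.5 times those reported. No read numbers were at hand, and each list ends at a fixed length, so weaker peaks were not visible. No paired analysis was possible because the samples form 1 group.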
